A study of Mus musculus with 42 samples.

Results

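Transcripts of leukocytes were followed through RNA libraries made from sorted mouse lung mesenchyme, the collagen-producing stromal cells of the lung. The set held 36 genes in 7 classes: 4 pan-leukocyte genes, 15 of macrophages and monocytes, 4 of alveolar macrophages, 3 of macrophage states, 2 of neutrophils, 4 of major histocompatibility complex (MHC) class II and 4 of lymphocytes. They were taken by symbol as markers of cells that could be carried over in the sort, and all 36 were present among the 26323 named genes of the CD1 table and the 35972 of the C57BL/6 table. The CD1 libraries came from mice with a Col1a1-GFP reporter, which marks cells by Col1a1 promoter activity: freshly sorted sham cells (n = 3), and cells cultured for 5 days on collagen-coated silicone of 0.2 kPa (soft, n = 3) or 32 kPa (stiff, n = 3). Both gel cultures were kept in 10% serum. The C57BL/6 libraries came from mice in which cells of the Col1a2 lineage were traced: sham (n = 4), and day 14 (n = 4) and day 56 (n = 4) after bleomycin, an agent that causes lung injury and fibrosis. Lungs were perfused, digested and depleted of red cells, and GFP-positive live cells were sorted that lacked CD45 and EpCAM and, in the Col1a1-GFP mice, CD31. The age of the mice, the day of the sham samples, the pooling of animals and any second sort after culture are not stated in the labels. Nothing states that the libraries of a group came from separate animals, so p-values measure the spread between these libraries.

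Leukocytes carry CD45, the phosphatase encoded by Ptprc, on their surface, and sorting against CD45 is the usual way to remove them from stromal cells. Macrophages in the lung are of 2 main kinds: alveolar macrophages, which line the airspace and make large amounts of Chil3, and interstitial macrophages. After bleomycin, monocytes and neutrophils enter the lung. Macrophages, dendritic cells and B cells present antigen through MHC class II. A CD45 gate acts on protein, whereas the libraries measure RNA. In sorted bulk samples, fewer cells of a type and less RNA per cell cannot be told apart.

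Named-gene reads numbered 34313376 to 67721210 per CD1 library and 14288605 to 51288435 per C57BL/6 library. Levels are given in CPM, the counts scaled to the same total of such reads in every library, and 3 reads, taken here as the limit of detection, equal 0.0443 to 0.210 CPM. Genes detected ranged from 16311 to 18797 in the CD1 libraries and from 16563 to 21381 in the C57BL/6 libraries, where sham replicates 1 and 2 and day 56 replicates 2 and 3 had the fewest. Xist exceeded Ddx3y in all 9 CD1 libraries, in 1 of 4 C57BL/6 sham libraries, 2 of 4 at day 14 and 4 of 4 at day 56, so sex was not balanced over the bleomycin groups. The summed level of 10 mesenchymal genes, among them Col1a1, Col1a2 and Pdgfra, was 107215, 5586 and 5111 CPM in CD1 sham, soft and stiff cells, and 117680, 106295 and 100656 CPM in C57BL/6 sham, day 14 and day 56 cells. The tables were normalized separately, so tests were run only within a table.

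The promoters shown here belong to 5 of the members whose start sites lay in regions of changed chromatin accessibility, described at the end. They are RefSeq sequences of GRCm38.p6 (mm10), printed 5' to 3' on the gene's strand and ending at the base before the annotated start. Capitals mark CCAAT, the box bound by NF-Y in MHC class II promoters, or GAGGAAG, the core bound by the myeloid factor PU.1, each searched on both strands. The printed windows are up to 200 bases long, and bases inside a GENCODE first exon were left off. S100a8 (chr3:90668871-90668977, plus strand) held 1 GAGGAAG match and Itgax (chr7:128129350-128129546, plus strand) 1 CCAAT match. H2-Aa (chr17:34287824-34288023, minus strand) held 1 CCAAT match and H2-Eb1 (chr17:34305667-34305866, plus strand) held 2. C1qb (chr4:136886201-136886400, minus strand) held neither.
S100a8: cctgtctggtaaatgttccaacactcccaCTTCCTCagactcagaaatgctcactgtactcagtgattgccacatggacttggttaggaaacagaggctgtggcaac
Itgax: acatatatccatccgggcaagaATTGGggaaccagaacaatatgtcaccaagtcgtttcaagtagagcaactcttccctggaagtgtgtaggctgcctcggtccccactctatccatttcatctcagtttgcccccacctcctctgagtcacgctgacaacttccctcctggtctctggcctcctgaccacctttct
H2-Aa: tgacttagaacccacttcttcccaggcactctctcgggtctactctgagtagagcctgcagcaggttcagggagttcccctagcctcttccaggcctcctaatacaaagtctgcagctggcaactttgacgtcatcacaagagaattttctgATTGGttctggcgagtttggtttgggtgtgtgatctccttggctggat
H2-Eb1: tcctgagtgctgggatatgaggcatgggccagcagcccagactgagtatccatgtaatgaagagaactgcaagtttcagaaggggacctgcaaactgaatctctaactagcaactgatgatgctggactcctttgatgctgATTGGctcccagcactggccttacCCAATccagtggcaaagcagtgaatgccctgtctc
C1qb: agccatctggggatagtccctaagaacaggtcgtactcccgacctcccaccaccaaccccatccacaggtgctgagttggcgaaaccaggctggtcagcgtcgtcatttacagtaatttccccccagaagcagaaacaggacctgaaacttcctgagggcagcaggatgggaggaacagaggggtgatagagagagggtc
Promoters were matched for 25 of the 36 members, and over the same 200-base window 8 of the 25 (32.0%) held GAGGAAG and 8 of the 25 (32.0%) held CCAAT. Among 32851 RefSeq promoters the shares were 8.84% for GAGGAAG and 29.3% for CCAAT.

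Freshly sorted cells of both strains held leukocyte transcripts in every library. The 36 members summed to 149.8, 301.0 and 241.6 CPM in CD1 sham replicates 1 to 3, and to 437.6, 640.2, 413.6 and 491.6 CPM in C57BL/6 sham replicates 1 to 4. Macrophage and monocyte genes were the largest class of the CD1 sum (114 ± 32.1 CPM, SD, n = 3), followed by MHC class II (66.3 ± 31.4 CPM), alveolar macrophage (24.4 ± 8.34 CPM) and pan-leukocyte genes (20.9 ± 7.10 CPM). The SD ranges of these last 2 classes overlapped. In C57BL/6 sham cells MHC class II genes led (223 ± 59.9 CPM, SD, n = 4), with macrophage and monocyte genes next (190 ± 37.1 CPM), a difference smaller than their SD. Lymphocyte, macrophage state and neutrophil genes averaged 1.00 to 5.33 CPM in sham cells of both strains. CPM is not corrected for gene length, so these sums compare reads and not numbers of transcripts.

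The CD1 sham libraries differed among themselves. Replicate 2 had the highest level of 28 of the 36 members and replicate 1 the lowest of 29. Replicate 2 also had the highest sums of the 3 for epithelial (389 CPM), mesothelial (124 CPM), red cell (38.9 CPM) and B cell markers (102 CPM, against 28.2 and 23.8). Lyz2, a lysozyme gene, stood in a steady proportion to Ptprc in these libraries, with 6.51, 7.88 and 6.87 Lyz2 reads per Ptprc read. In bulk samples this ratio does not show which cells the Lyz2 reads came from.

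**Figure D1:**
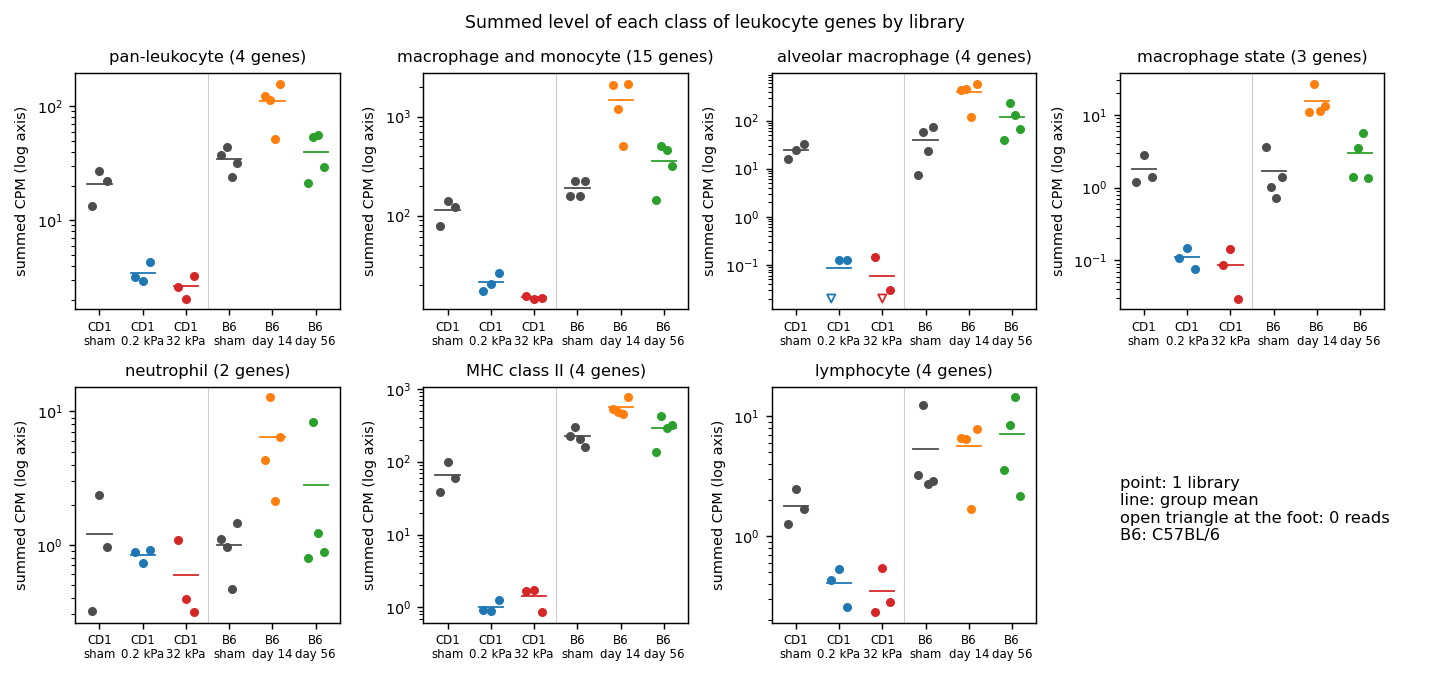
Summed CPM of the 7 member classes in each of the 21 RNA libraries, on a log axis, with 1 point per library, grouped by strain and condition. The sum over all members averaged 231 CPM in CD1 sham cells, 27.1 on the soft gel and 20 on the stiff gel, and 2572 at day 14 in C57BL/6 mice.

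Culture on either gel was compared with the sham cells of the same strain. Most members fell: 31 were lower and 1 higher on the soft gel, and 32 were lower and 0 higher on the stiff gel (limma on log2 values, adjusted p under 0.05). The median difference over the 36 members was −3.35 on the log2 scale on the soft gel and −4.18 on the stiff gel, or −4.60 with the 12 members that had 0 reads on the stiff gel set at their detection bound. Over all 18480 genes tested the median was −0.22 and −0.26, and the culture comparisons called 71.1% of them on the soft gel (31.9% higher, 39.2% lower) and 73.4% on the stiff gel (32.4% higher, 41% lower). By edgeR 31 and 32 members were called, where 69.3% and 71.8% of all genes were. On the soft and stiff gel, the sham and gel libraries did not overlap for 30 and 31 members, against 76.4% and 73.1% of all genes. The 36 members summed to 22.7, 25.4 and 33.2 CPM in the soft libraries and to 21.2, 19.4 and 19.6 CPM in the stiff libraries. Of the 10 mesenchymal genes, which mark the sorted cells themselves, 10 also fell on both gels (medians of −4.53 and −4.74). Their sums averaged 107215, 5586 and 5111 CPM in sham, soft and stiff cells. Marker sums of other cell types moved with the gels: the sums of 14 epithelial genes averaged 239, 5.06 and 4.67 CPM in sham, soft and stiff cells, those of 4 red cell genes 19.5, 0.220 and 0.260 CPM, and those of 12 endothelial genes 311, 108 and 109 CPM. By library the epithelial sums spanned 142 to 389, 4.57 to 5.94 and 4.61 to 4.72 CPM, the red cell sums 5.68 to 38.9, 0.128 to 0.302 and 0.206 to 0.350 CPM, and the endothelial sums 290 to 326, 106 to 109 and 99.1 to 120 CPM. Each gel library held reads for 4 to 10 of the 14 epithelial genes, 1 or 2 of the 4 red cell genes and 10 to 12 of the 12 endothelial genes, and Hba-a1 was at 0 in all 6. Their part in the result was not tested.

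**Figure D2:**
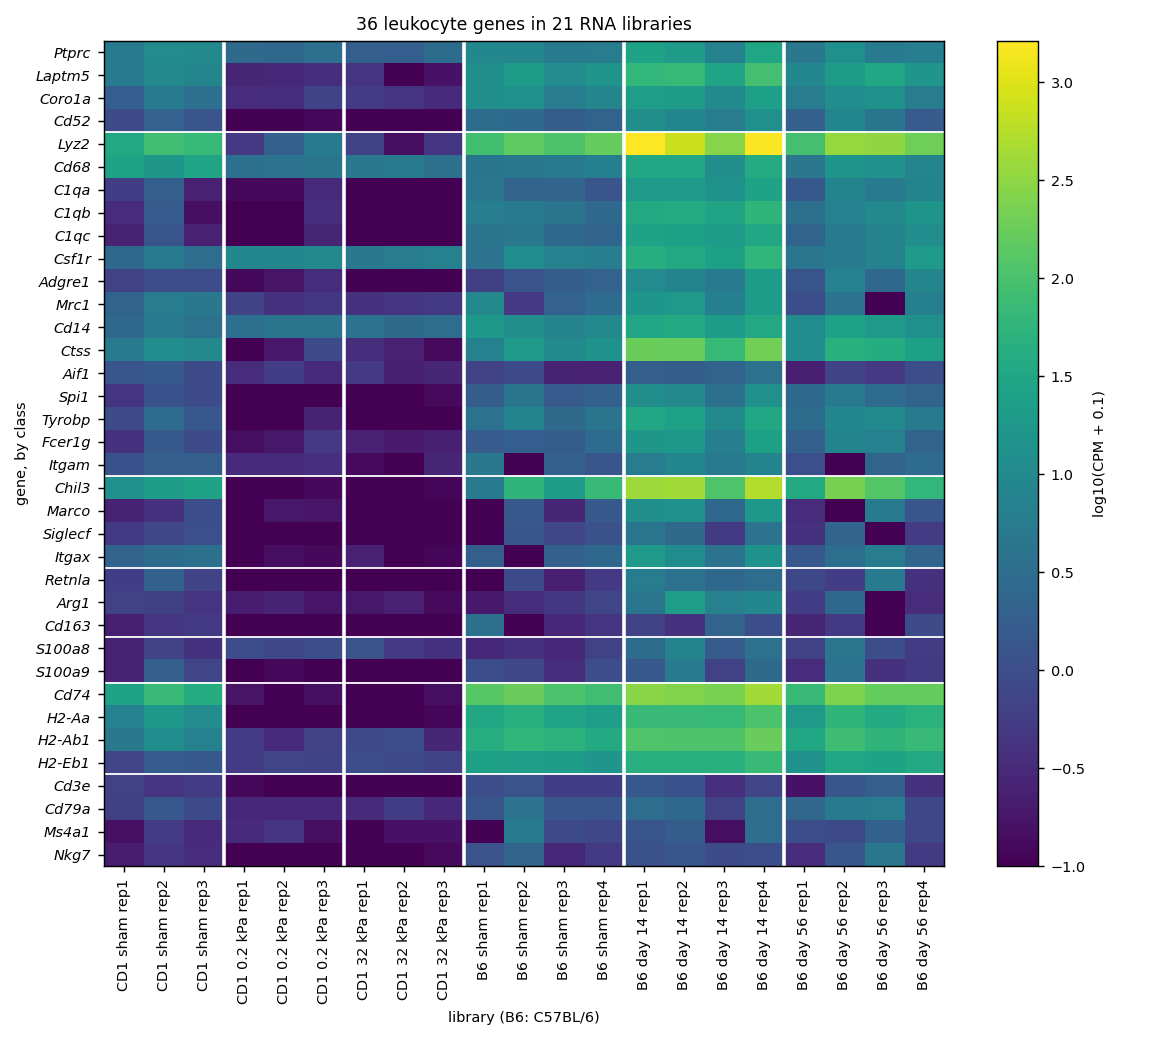
Heat map of the 36 members (rows, by class) over the 21 RNA libraries (columns, by group), coloured by log10(CPM + 0.1), so that the darkest cells hold 0 or few reads and white lines part classes and groups. Between 8 and 20 members were at 0 reads in each gel library, whereas day 14 libraries carried the highest levels.

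Among pan-leukocyte genes, all 4 fell on both gels. Ptprc was 5.25, 10.5 and 9.66 CPM in sham replicates 1 to 3, 2.76, 2.48 and 3.35 CPM on the soft gel and 1.81, 1.73 and 2.99 CPM on the stiff gel. All gel libraries lay below all sham libraries, with log2 differences of −1.71 ± 0.31 (SE, adjusted p = 4.73e-04) and −2.06 ± 0.31 (adjusted p = 1.1e-04). Laptm5, a lysosomal membrane protein of leukocytes, fell further: 5.38, 9.35 and 8.04 CPM in sham cells, 8, 9 and 10 reads (0.172, 0.192 and 0.254 CPM) on the soft gel, and 12, 0 and 4 reads on the stiff gel. Its differences were −5.24 ± 0.83 and −6.56 ± 0.83. For each Ptprc read there were 0.832 to 1.02 Laptm5 reads in sham cells but 0.0625 to 0.0776 on the soft gel, and 0.194, 0 and 0.02 in the stiff libraries, which scattered more. Coro1a, an actin-binding protein of leukocytes, was 1.75, 5.35 and 3.41 CPM in sham cells, 0.237, 0.256 and 0.635 CPM on the soft gel and 0.437, 0.330 and 0.224 CPM on the stiff gel. It fell by 3.34 and 3.35 on the log2 scale. Cd52 gave 257 reads over the sham libraries, 1 over the soft libraries and 0 over the stiff libraries, where it was at least 69.1-fold lower. The difference of Ptprc was the smallest of the 4 on both gels; differences between the genes were not tested.

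Of the 15 macrophage and monocyte genes, 12 fell and 1 rose on the soft gel, and 13 fell on the stiff gel. Lyz2 was 34.2, 82.9 and 66.4 CPM in sham cells, 0.410, 1.88 and 5.21 CPM on the soft gel, and 0.641, 0.0412 and 0.359 CPM on the stiff gel. All gel libraries were below sham (−5.34 ± 0.95, adjusted p = 4.52e-04; −7.97 ± 0.95, adjusted p = 2.02e-05). Lyz2 reads per Ptprc read were 0.148, 0.759 and 1.55 on the soft gel and 0.355, 0.0238 and 0.120 on the stiff gel. Lyz1, a near copy next to Lyz2, could share its reads and averaged 21.9, 0.0593 and 0.00499 CPM in sham, soft and stiff cells. Ctss, the lysosomal protease cathepsin S, was 5.32, 11.7 and 9.46 CPM in sham cells against 0, 4 and 33 reads on the soft gel and 9, 7 and 2 reads on the stiff gel. Its log2 differences were −6.25 ± 1.12 and −6.09 ± 1.12. The complement genes C1qa, C1qb and C1qc, the F4/80 gene Adgre1 and the adaptor gene Tyrobp had 0 reads in all 3 stiff libraries. By reads summed over each group they were at least 42.2-fold, 33.3-fold, 25.8-fold, 39.8-fold and 85.2-fold below sham. These bounds do not cover the spread between libraries: C1qb gave 14, 107 and 3 reads in sham replicates 1 to 3. On the soft gel C1qb was not called (−2.78 ± 1.18, adjusted p = 0.0553), with sham libraries that ranged widely (0.625 ± 0.833 CPM, SD, n = 3).

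Csf1r and Cd14 did not follow the others of their class. Csf1r, the receptor for macrophage colony-stimulating factor, was 2.42, 5.40 and 3.09 CPM in sham cells, 8.95, 8.94 and 9.65 CPM on the soft gel and 4.98, 5.73 and 6.82 CPM on the stiff gel. It rose on the soft gel, where groups did not overlap (1.21 ± 0.27, adjusted p = 0.00184), and was not called on the stiff gel (0.63 ± 0.27, adjusted p = 0.0529). Without sham replicate 2 the stiff value was 0.95 (adjusted p = 0.0015). Csf1r shares 873 exon bases with Hmgxb3 on the other strand, the labels do not state whether counting used strand, and Hmgxb3 was 30.1 ± 3.88, 59.9 ± 1.24 and 53.5 ± 10.4 CPM (SD, n = 3) in sham, soft and stiff cells. Reads of the pair may therefore be mixed. Cd14, the lipopolysaccharide co-receptor, was 3.82 ± 1.34, 3.84 ± 0.377 and 3.27 ± 0.530 CPM (SD, n = 3), with differences from sham of −0.14 ± 0.27 and −0.30 ± 0.27.

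Alveolar macrophage genes fell in 4 of 4 on both gels. Chil3, a secreted chitinase-like protein, was 13.5, 20.2 and 27.4 CPM in sham cells, 3813 reads in all, against 1 read over the 3 soft libraries and 1 over the 3 stiff libraries. Chil3 was 2725-fold lower on the soft gel (95% counting interval 489 to 107674) and 3076-fold lower on the stiff gel (552 to 121527); these intervals cover counting error only. Itgax (CD11c) was 2.08, 2.98 and 3.54 CPM in sham cells, with 0, 2 and 1 reads on the soft gel and 5, 0 and 1 on the stiff gel, and its differences were −6.31 ± 0.74 and −5.93 ± 0.74. Marco, a scavenger receptor, gave 9, 20 and 56 reads in sham cells, 0, 4 and 3 on the soft gel and 0 on the stiff gel, where it was at least 22.9-fold lower. Siglecf had 0 reads on both gels.

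The 3 macrophage state genes also fell on both gels. Retnla was 0.494, 1.92 and 0.639 CPM in sham cells and had 0 reads in all 6 gel libraries (at least 46.9-fold lower on the soft gel and 53.0-fold on the stiff gel). Cd163, the haemoglobin scavenger receptor, gave 7, 25 and 26 reads in sham cells and 0 in all 6 gel libraries. Arg1, arginase 1, gave 33, 36 and 20 reads in sham cells, 5, 7 and 3 on the soft gel and 3, 7 and 2 on the stiff gel, differences of −2.10 ± 0.53 and −2.45 ± 0.53.

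The neutrophil pair S100a8 and S100a9, whose proteins form calprotectin, split in culture. S100a9 gave 0.159, 1.77 and 0.655 CPM in sham cells, 0, 1 and 0 reads on the soft gel and 0 reads on the stiff gel, and fell on both (at least 45.4-fold on the stiff gel). S100a8 gave 9, 39 and 19 reads in sham cells, 41, 33 and 36 on the soft gel and 37, 19 and 21 on the stiff gel, and was not called (1.18 ± 0.56, adjusted p = 0.0809; 0.58 ± 0.56, adjusted p = 0.364). In CPM the soft libraries (0.704 to 0.915) lay above the sham libraries (0.159 to 0.576) and the stiff libraries overlapped them, and scaling to total reads brought the soft difference to 1.37 (adjusted p = 0.044). Without sham replicate 2 it was 1.61 (adjusted p = 0.0312). Whether the 2 genes differed from each other in response was not tested.

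MHC class II genes had the lowest class median of the 7 classes on both gels (−6.75 on the soft gel and −6.40 on the stiff gel), and 4 of 4 fell on the soft gel and 3 of 4 on the stiff gel. Cd74, the invariant chain, was 26.3, 69.8 and 40.6 CPM in sham cells, with 3, 0 and 2 reads on the soft gel and 0, 0 and 3 on the stiff gel (−9.86 ± 0.65 on the soft gel, and 2341-fold lower on the stiff gel, 95% counting interval 801 to 11352). H2-Aa, the alpha chain of I-A, was 7.04, 17.4 and 10.6 CPM in sham cells, had 0 reads on the soft gel, at least 531-fold lower, and 1 read on the stiff gel. H2-Ab1, its beta chain, kept reads in every gel library: 4.69, 11.5 and 6.94 CPM in sham cells, 20, 11 and 22 reads on the soft gel and 26, 45 and 12 on the stiff gel, differences of −4.35 ± 0.61 and −3.90 ± 0.61. H2-Eb1 was 1.23 ± 0.498 CPM in sham cells (SD, n = 3), 0.576 ± 0.126 CPM on the soft gel, where it fell, and 0.795 ± 0.154 CPM on the stiff gel, where it was not called (−0.67, adjusted p = 0.155).

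Lymphocyte genes were low everywhere, and 3 of 4 fell on the soft gel and 4 of 4 on the stiff gel. Cd79a, part of the B cell receptor, was 0.529, 1.28 and 0.770 CPM in sham cells, with 9, 9 and 8 reads on the soft gel and 8, 23 and 13 on the stiff gel (−2.12 ± 0.46 and −1.58 ± 0.46). Nkg7, of cytotoxic cells, gave 6, 25 and 15 reads in sham cells, 0 on the soft gel (at least 11-fold lower) and 0, 0 and 2 on the stiff gel. Cd3e, a chain of the T cell receptor complex that shares 135 exon bases with an antisense gene, gave 83 reads over the sham libraries, 1 over the soft and 0 over the stiff libraries. Ms4a1 (CD20) gave 3, 31 and 13 reads in sham cells, 10, 16 and 2 on the soft gel, which overlapped, and 0, 3 and 4 on the stiff gel. The stiff difference (−2.08 ± 0.86, adjusted p = 0.0479) lost its call without sham replicate 2 or 3 or stiff replicate 1 and under 4 other alternatives (adjusted p 0.052 to 0.179).

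**Figure D3:**
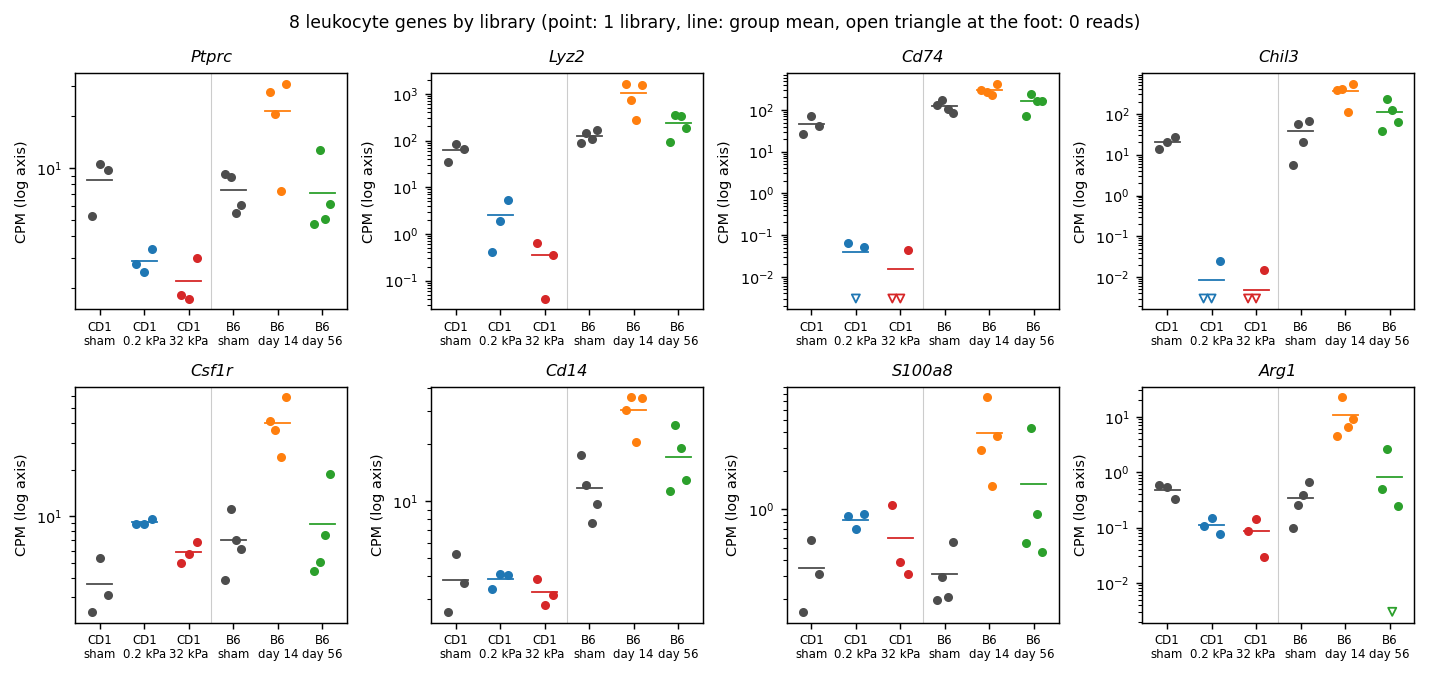
CPM of selected members in each RNA library on a log axis, 1 point per library, with triangles at the bottom for libraries at 0 reads. Ptprc stayed at 1.73 CPM or above in every gel library, Csf1r was higher on the soft gel than in CD1 sham cells, and Chil3 and Cd74 fell to 3 reads or fewer in each gel library.

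The 2 gels were compared with each other to see whether stiffness altered what remained. No member was called between 32 kPa and 0.2 kPa by limma, where 0% of all genes were called, or by edgeR, which called 1 gene (0.00541%). Without adjustment 3 members were under 0.05 by limma and 3 by edgeR. The lowest adjusted p was 0.713 by limma and 0.828 by edgeR. The median difference was −0.33 (all genes −0.01), with values from −2.63 for Lyz2 to 0.53 for Cd79a. The groups did not overlap for 4 members, against 9.23% of all genes. Stiff replicate 3 had 17872 genes detected against 16394 and 16311 in the other 2. Without it, 824 of 18533 genes were called, 1 of them a member: Itgam, the CD11b integrin, at −2.94 ± 0.52 (adjusted p = 0.0218). Itgam shares 3450 exon bases with Gm49368 on the same strand, so its reads may not be its own alone.

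After bleomycin, leukocyte transcripts in the traced cells were higher at day 14 (a member sum of 2572 ± 1112 CPM, against 496 ± 102 CPM in sham cells, SD, n = 4). The 36 members summed to 3185, 2290, 1142 and 3671 CPM in day 14 replicates 1 to 4, all above the 4 sham libraries. Of the 36 members, 26 rose and 0 fell, where 15.9% of the 21100 genes tested were called (9.57% higher, 6.36% lower), and the groups did not overlap for 25 members, against 26.2% of all genes. All 36 differences were above 0, from 0.06 to 4.87 on the log2 scale, with a median of 2.48 (all genes 0.05). Day 14 replicate 3 was the lowest of its group for 31 members and replicate 4 the highest for 24. Marker sums averaged 253 CPM in sham cells and 54.0 CPM at day 14 for epithelium, 241 and 143 CPM for endothelium, and 28.6 and 54.2 CPM for red cells. By library they spanned 133 to 339 and 28.8 to 85.5 CPM, 212 to 300 and 103 to 172 CPM, and 19.6 to 35.1 and 40.0 to 86.2 CPM. Their part in the result was not tested.

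Of the pan-leukocyte genes, 3 of 4 rose at day 14. Ptprc was 9.22, 8.91, 5.47 and 6.05 CPM in sham libraries and 27.6, 20.5, 7.30 and 30.8 CPM at day 14. Replicate 3 lay within the sham range, and the call (1.43 ± 0.42, adjusted p = 0.0344) was lost without sham replicate 2, 3 or 4 or day 14 replicate 1, 2 or 4 (adjusted p 0.0545 to 0.108). Laptm5 was 12.4, 19.5, 10.7 and 15.2 CPM in sham libraries and 62.0, 65.1, 28.7 and 89.4 CPM at day 14, with no overlap (2.05 ± 0.38, adjusted p = 0.0022). Coro1a was 12.6, 12.9, 6.07 and 8.30 CPM against 21.6, 20, 9.96 and 23.4 CPM and was not called (0.95 ± 0.36, adjusted p = 0.0972), though it was without day 14 replicate 3 (adjusted p = 0.0429).

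Of the 15 macrophage and monocyte genes, 13 rose at day 14, and on average the class was the largest of the 7. Their class sum was 190 ± 37.1 CPM in sham cells and 1484 ± 783 CPM at day 14 (SD, n = 4). Lyz2 was 87.3, 147, 109 and 165 CPM in sham libraries and 1626, 753, 280 and 1563 CPM at day 14 (2.84 ± 0.50, adjusted p = 0.00161). All 4 day 14 libraries lay above sham. The libraries held 9.47, 16.5, 19.9 and 27.3 Lyz2 reads per Ptprc read in sham cells and 59.0, 36.7, 38.3 and 50.7 at day 14. Ctss was 6.96, 18.2, 9.80 and 14.7 CPM against 183, 170, 65.4 and 205 CPM, again without overlap (3.66 ± 0.45, adjusted p = 9.18e-05). Csf1r was 3.86, 11.2, 7.08 and 6.17 CPM against 41.5, 35.9, 24.2 and 58.9 CPM (2.57 ± 0.44, adjusted p = 0.00128). Its neighbour Hmgxb3 averaged 32.9 CPM in sham cells and 29.4 CPM at day 14. The mannose receptor gene Mrc1 (2.73 ± 1.36) and Itgam (3.19 ± 1.53) had large but variable differences and were not called.

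Of the alveolar macrophage genes 3 of 4 rose at day 14, and of the macrophage state genes 2 of 3. Chil3 was 5.54, 55.6, 20.3 and 67.9 CPM in sham libraries and 393, 416, 114 and 540 CPM at day 14 (3.68 ± 0.73, adjusted p = 0.00335). Itgax was 1.77, 0, 1.89 and 2.42 CPM against 18, 11.1, 3.89 and 14.7 CPM (3.93 ± 1.15, adjusted p = 0.0313), a call lost without day 14 replicate 1, 2 or 4 (adjusted p 0.0765 to 0.0851). Marco was 0, 1.41, 0.182 and 1.43 CPM against 12.2, 13.6, 2.59 and 17.8 CPM (4.87 ± 1.5, adjusted p = 0.0403), a call lost without sham replicate 1 or 3 or day 14 replicate 1, 2 or 4 and under 3 other alternatives (adjusted p 0.0535 to 0.104). Siglecf was not called. Arg1 gave 5, 12, 15 and 27 reads in sham libraries and 4.41, 22.6, 6.65 and 9.28 CPM at day 14, against 0.0975 to 0.653 CPM in sham (4.86 ± 1.09, adjusted p = 0.00714). Retnla was 0, 0.779, 0.130 and 0.411 CPM against 5.99, 3.65, 2.59 and 3.11 CPM (4.27 ± 1.03, adjusted p = 0.0114). Cd163 was not called (1.48 ± 1.33), with sham replicate 1 at 3.49 CPM above all day 14 libraries (0.313 to 2.11 CPM).

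MHC class II genes rose in 4 of 4, by smaller amounts than the macrophage genes. Cd74 was 130, 175, 104 and 82.4 CPM in sham libraries and 294, 264, 231 and 421 CPM at day 14 (1.36 ± 0.32, adjusted p = 0.00976). H2-Ab1 was 41.5, 59.6, 50.1 and 37.4 CPM against 113, 107, 107 and 174 CPM (1.44 ± 0.26, adjusted p = 0.00184). H2-Aa was 32.1, 45.5, 28.9 and 23.1 CPM against 69.2, 70.3, 65.0 and 104 CPM (1.31 ± 0.30, adjusted p = 0.00862). None of these 3 genes overlapped between the groups. The class median was 1.36, against 2.84 for macrophage and monocyte genes; this difference between classes was not tested.

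Of the neutrophil pair, S100a8 rose and S100a9 was not called at day 14. S100a8 was 0.195, 0.295, 0.207 and 0.556 CPM in sham libraries and 2.92, 7.53, 1.53 and 3.72 CPM at day 14 (3.47 ± 0.73, adjusted p = 0.00495). S100a9 was 0.916, 0.674, 0.259 and 0.895 CPM against 1.39, 5.25, 0.586 and 2.72 CPM, which overlapped (1.59 ± 0.89, adjusted p = 0.271). None of the 4 lymphocyte genes was called by limma. Cd79a was 1.23, 3.90, 1.24 and 1.23 CPM in sham libraries and 3.04, 2.5, 0.544 and 3.11 CPM at day 14. Ms4a1 was 0, 5.37, 0.778 and 0.702 CPM against 1.13, 1.63, 0.0418 and 3.06 CPM, and Nkg7 was 1.11, 2.15, 0.207 and 0.411 CPM against 1.01, 1.23, 0.837 and 0.944 CPM. The groups overlapped for all 3, and the sign of the Ms4a1 difference changed under 3 alternatives. Without the 4 C57BL/6 libraries with the fewest genes detected, a set chosen after seeing the data, Nkg7 was called (adjusted p = 0.0332) and 30 members in all.

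**Figure D4:**
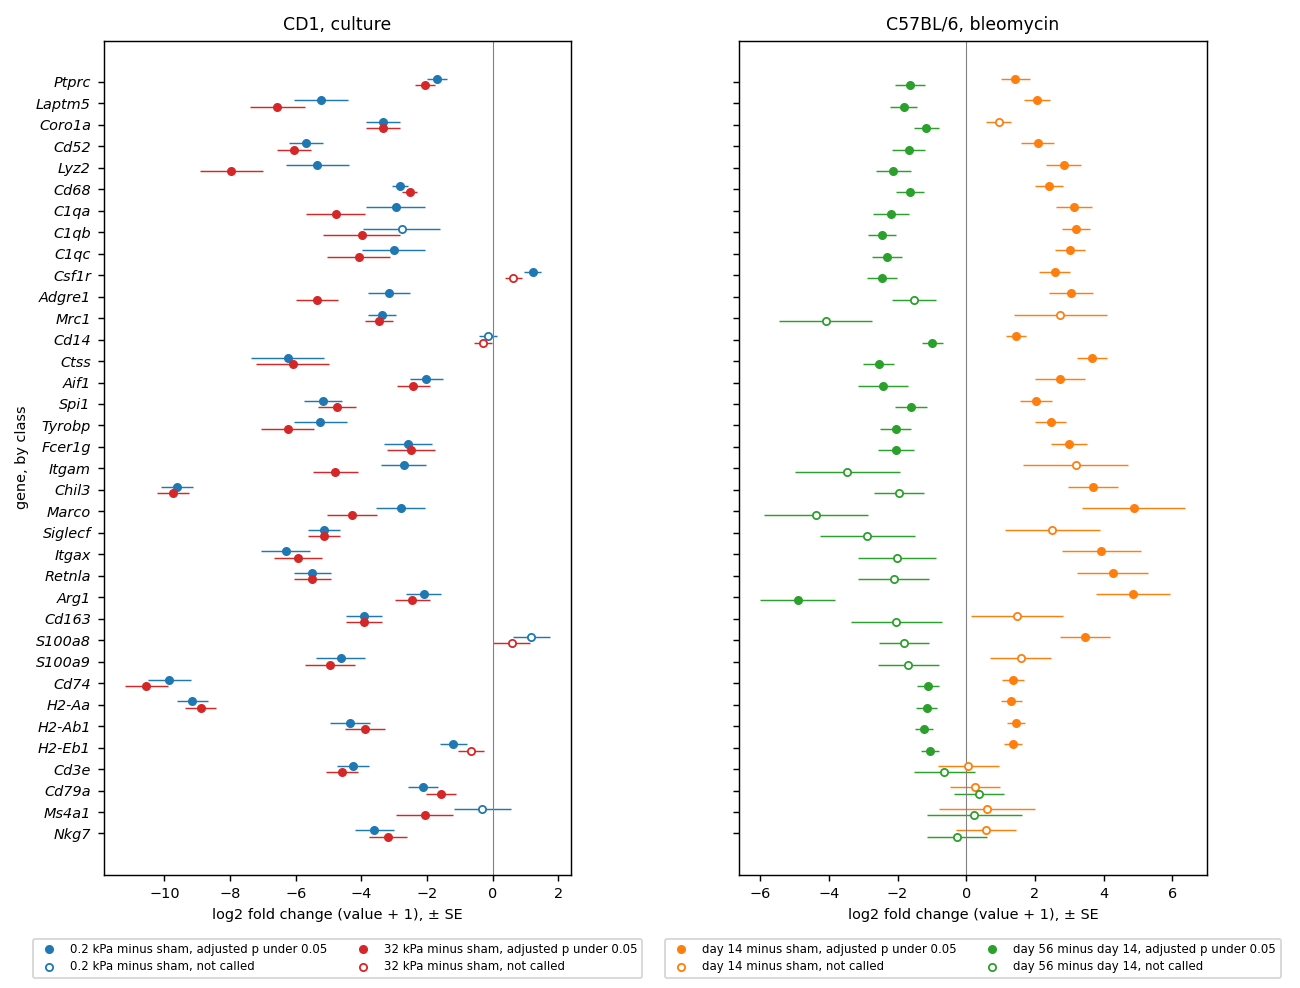
Log2 differences of the 36 members in the culture and bleomycin comparisons, with bars of 1 SE and filled points for adjusted p under 0.05 by limma. Members lay mostly left of 0 on the gels, right of 0 at day 14, and left of 0 from day 14 to day 56.

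At day 56 the member sums were 347.3, 1225, 953.7 and 735.3 CPM, which overlapped sham. No member was called between day 56 and sham by limma, where 0.00474% of all genes were called, or by edgeR. Without adjustment 4 members were under 0.05 by limma and 10 by edgeR. The lowest adjusted p was 0.768 by limma and 0.788 by edgeR. The median difference was 0.40 (all genes −0.02) and ranged from −1.36 to 2.15. Between day 14 and day 56, 21 of 36 members fell and 0 rose, where 14.2% of all genes were called (5.71% higher, 8.49% lower), with a median of −1.89 (all genes −0.08). The groups did not overlap for 14 members, against 20.2% of all genes. This count depended on single libraries: it was 10 without day 14 replicate 4, 12 without day 14 replicate 2, 13 without day 56 replicate 1, and 31 without the 4 C57BL/6 libraries with the fewest genes detected. The 2 comparisons share the day 14 libraries, and 20 members were both higher at day 14 than sham and lower at day 56 than day 14. Marker sums of other cell types averaged 54.2 CPM at day 14 and 10.5 CPM at day 56 for red cells (40.0 to 86.2 and 3.55 to 21.6 CPM by library), 34.1 and 19.0 CPM for platelets, 54.0 and 88.8 CPM for epithelium, and 143 and 159 CPM for endothelium. Of 5 red cell genes 4 fell, and the groups overlapped for none of the 5. The part of these cells in the result was not tested.

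By class, pan-leukocyte genes fell from day 14 to day 56 in 4 of 4, macrophage and monocyte genes in 12 of 15, MHC class II genes in 4 of 4 and macrophage state genes in 1 of 3. Ptprc was 4.71, 12.7, 5.06 and 6.19 CPM at day 56 (−1.64 ± 0.42 from day 14, adjusted p = 0.019), and this call was lost without day 14 replicate 1, 2 or 4 or day 56 replicate 1 (adjusted p 0.0566 to 0.0654). Lyz2 was 94.5, 355, 330 and 189 CPM at day 56 (−2.12 ± 0.50, adjusted p = 0.0119). Replicates 2 and 3 were above the day 14 library of 280 CPM. Lyz2 reads per Ptprc read were 20.1, 27.9, 65.2 and 30.5 at day 56, of which replicate 3 was above every day 14 library. Ctss was 11.1, 46.4, 39.8 and 24.2 CPM, all below day 14 (−2.55 ± 0.45, adjusted p = 0.00175), and Csf1r was 4.46, 5.04, 7.62 and 18.7 CPM, also all below (−2.46 ± 0.44, adjusted p = 0.00207). Arg1 gave 8, 37, 0 and 10 reads at day 56 and had the lowest difference of the 36 (−4.91 ± 1.09, adjusted p = 0.00801).

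Laptm5, Coro1a and the MHC class II genes also fell from day 14 to day 56. Laptm5 was 8.68, 20.9, 31.8 and 15.7 CPM (−1.83 ± 0.38 from day 14, adjusted p = 0.0055), and Coro1a was 5.81, 11.3, 14.5 and 5.80 CPM (−1.17 ± 0.36, adjusted p = 0.0468), a call lost under 10 alternatives, among them leaving out day 14 replicate 1, 2 or 4 or day 56 replicate 1 or 4 (adjusted p 0.0568 to 0.129). Cd74 was 72.0, 248, 167 and 165 CPM (−1.11 ± 0.32, adjusted p = 0.0337), a call lost with edgeR (adjusted p = 0.0557), with total reads, and without day 14 replicate 1, 2 or 4 or day 56 replicate 1 or 3. H2-Ab1 was 32.6, 81.2, 54.7 and 72.1 CPM, all below day 14 (−1.23 ± 0.26, adjusted p = 0.00636). H2-Aa was 18.7, 56.5, 36.9 and 48.5 CPM, also all below (−1.15 ± 0.30, adjusted p = 0.0204), lost without day 14 replicate 4 (adjusted p = 0.0661).

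No alveolar macrophage, neutrophil or lymphocyte gene was called between day 14 and day 56 by limma at the main settings. Marco was called at a pseudocount of 5 (adjusted p = 0.0331) and without the rescaling (adjusted p = 0.049), and Chil3 (adjusted p = 0.0406) and Itgax (adjusted p = 0.0314) with only the 2 groups in the fit. Single libraries also mattered: Chil3, S100a8 and S100a9 fell without day 56 replicate 2, and Marco without day 56 replicate 3. Without the 4 libraries with the fewest genes detected, these 4 genes and Itgax, Retnla and Nkg7 were called. Chil3 was 37.2, 227, 121 and 61.7 CPM at day 56 (−1.95 ± 0.73, adjusted p = 0.0927), of which 2 libraries lay above the lowest at day 14. Itgax was 1.35, 3.22, 5.81 and 2.30 CPM, Marco 0.245, 0, 5.64 and 1.22 CPM, and Retnla 0.734, 0.490, 5.59 and 0.294 CPM, each highest in replicate 3. Replicate 2 was highest for both neutrophil genes: S100a8 was 0.550, 4.34, 0.918 and 0.465 CPM and S100a9 was 0.245, 3.99, 0.298 and 0.416 CPM. Cd163 gave 3, 6, 0 and 33 reads. Among lymphocyte genes, Cd79a was 2.32, 5.11, 6.08 and 0.71 CPM, Ms4a1 0.917, 0.770, 1.91 and 0.71 CPM, and Nkg7 0.245, 1.26, 4.59 and 0.416 CPM, all overlapping day 14.

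A further 98 leukocyte genes in 11 lists, chosen like the members with earlier results of these data known, were read the same way, and 89 were tested in each table. On the soft gel 65 were lower and 3 higher, and on the stiff gel 62 were lower and 4 higher. Of all genes tested, 39.2% were lower and 31.9% higher on the soft gel, and 41% and 32.4% on the stiff gel. Mmp8, neutrophil collagenase, rose on both gels (2.14 ± 0.56 and 2.99 ± 0.56), the only gene of its list called higher. Of the 8 neutrophil genes tested there, 4 were lower on the soft gel and 2 on the stiff gel. Mcpt8, a basophil protease, had 0 reads in CD1 sham cells and was at least 31.2-fold higher on the soft gel and 16.9-fold on the stiff gel. Of the 6 mast cell and basophil genes tested, 4 were lower on the soft gel and 3 on the stiff gel. Ccl5 rose on the stiff gel (1.74), where 5 of the 7 NK cell genes tested were lower. The immunoglobulin gene Igkc was 41.8 ± 35.4 CPM in CD1 sham cells and had 0 reads on the soft gel. Of the 15 genes of the monocyte and macrophage list, 10 were lower and 1 higher on the soft gel (median −2.70). On the stiff gel 9 were lower and 1 higher (median −3.74). The 2 most abundant genes of this list moved less. Gpnmb averaged 94.4, 90.6 and 68.7 CPM in sham, soft and stiff cells and fell by 0.26 and 0.58 on the log2 scale. Plac8 averaged 17.3, 17.7 and 18 CPM and was not called.

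In the same lists 22 genes were higher and 2 lower at day 14 than in sham cells, 0 were called between day 56 and sham, and 16 were lower and 1 higher at day 56 than at day 14, all by limma. Of all genes tested, 9.57% were higher and 6.36% lower at day 14, and 0.00474% were called between day 56 and sham. From day 14 to day 56, 8.49% of all genes were lower and 5.71% higher. Mmp8 rose by 4.94 ± 1.05 at day 14. Of the 15 genes of the monocyte and macrophage list, 10 were called higher and 0 lower, and 2 differences were below 0. Among the genes that rose were Msr1 (6.34 ± 1.18), Trem2 (3.10) and Fcgr3 (2.99 ± 0.46). The sum of that list averaged 369 CPM in sham cells and 426 CPM at day 14. Of the 6 interstitial macrophage genes 1 was called higher, and their sum averaged 21.3 CPM in sham cells and 18.9 CPM at day 14. H2-DMb1, which helps load MHC class II, rose by 1.69 ± 0.26. Of the 6 platelet genes tested, Ppbp (−1.93) and Gp6 (−3.59) fell and 4 were not called. The platelet sum averaged 32.2 CPM in sham cells and 34.1 CPM at day 14. Of 10 T cell and 7 B cell genes tested, 0 were called at day 14. Of 7 NK cell genes tested, 2 were higher at day 14 than in sham cells, and 1 was lower at day 56 than at day 14. The mast cell protease gene Cpa3 rose from day 14 to day 56 (2.0 ± 0.45).

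Chromatin accessibility was measured by ATAC-seq in the same 6 groups, and the authors' deposited lists give regions called between groups, with log2 differences of group means. Regions in a member or within 2000 bases upstream of its start numbered 29 in the soft gel list, of which 27 were lower (16 members), and 34 in the stiff gel list, of which 27 were lower (16 members; Itgam held only a higher region). In the whole lists 87.9% of 47475 and 70.4% of 58510 regions were lower. The smallest absolute log2 difference was 1.0 in the soft gel list and 0.31 in the stiff gel list, so their counts are not directly comparable. Regions over the start sites of Fcer1g, C1qb, C1qc, Cd68, H2-Ab1, H2-Aa, H2-Eb1, Cd14 and Cd74 were lower on both gels. In the authors' deposited lists the region over the C1qb promoter printed above (chr4:136886071-136886327) differed by −2.49 on the soft gel and −2.13 on the stiff gel. The region over the Cd74 start differed by −3.34 and −2.91, that over the H2-Aa start (chr17:34287759-34288014) by −1.75 and −1.92, and that over the H2-Eb1 start (chr17:34305702-34305897) by −1.73 and −1.14. Cd14 lost accessibility at its start (−1.45 and −1.37 in the authors' deposited lists) although its RNA was not called, and a region 1122 bases from its start was higher on the stiff gel (1.12). Within Csf1r, the authors' deposited lists gave regions 6452 and 27117 bases from the start that were higher on the soft gel (1.74 and 1.23), with regions at nearly the same places higher on the stiff gel (1.98 and 1.38). A region 8059 bases from the start was lower on both (−1.77 and −1.60).

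At day 14 the authors' deposited list held 13 regions at 7 members, 12 of them higher than sham, in a list with 67.9% of 25518 regions higher. The promoter of S100a8 printed above lies in a region (chr3:90668784-90669175) that was 3.07 higher, and that of Itgax in a region (chr7:128129179-128129585) that was 2.64 higher. In the authors' deposited list of day 56 against day 14 the same regions were lower by −2.65 and −2.72. Of 14 regions at 8 members in that list, 13 were lower, against 73.7% of 21413 regions. The authors' deposited list of day 56 against sham held 1 region at a member, in Itgam, 26704 bases from its start (1.14).

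Inside Ptprc, 2 regions, both in intron 2 by the authors' annotation, differed from sham in opposite directions on the stiff gel and in the same direction at day 14. In the authors' deposited lists region A, 48649 bases inside the gene, was 3.76 higher than sham on the stiff gel. It was 1.13 higher on the stiff than on the soft gel, 3.24 higher at day 14 and changed by −2.16 from day 14 to day 56. The soft gel list did not hold region A. Its log2 level was 2.55 in sham cells in the stiff gel list and 5.18 on the soft gel in the list that compares the gels. In the same lists region B, 39105 bases inside, was −2.24 on the soft gel and −2.06 on the stiff gel, 2.57 higher at day 14 and −1.81 from day 14 to day 56. The bases that the lists of both strains share are printed on the gene's strand (mm10): region A at chr1:138127021-138127186 and region B at chr1:138136451-138136750, both on the minus strand. No match to TGANTCA, the AP-1 site, or GAGGAAG was found in either.
Region A: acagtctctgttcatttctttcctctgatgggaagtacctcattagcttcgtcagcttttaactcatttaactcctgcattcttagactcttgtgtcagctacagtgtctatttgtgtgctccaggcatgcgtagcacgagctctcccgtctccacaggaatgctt
Region B: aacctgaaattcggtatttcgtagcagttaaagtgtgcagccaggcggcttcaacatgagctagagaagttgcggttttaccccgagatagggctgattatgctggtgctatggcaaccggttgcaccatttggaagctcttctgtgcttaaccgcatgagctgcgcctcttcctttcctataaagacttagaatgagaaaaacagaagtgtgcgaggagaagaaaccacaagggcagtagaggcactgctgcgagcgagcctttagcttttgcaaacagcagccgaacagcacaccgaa
Among the 25518 day 14 regions, a window of region A's length held TGANTCA in 31.7% and one of region B's length in 38.8%; GAGGAAG was held by 6.62% and 12.0%. The H2-Ab1 gene also held a region, 471 bases inside it (chr17:34257998-34258322), that was 1.15 higher than sham on the stiff gel and 1.32 higher on the stiff than on the soft gel in the authors' deposited lists.

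**Figure D5:**
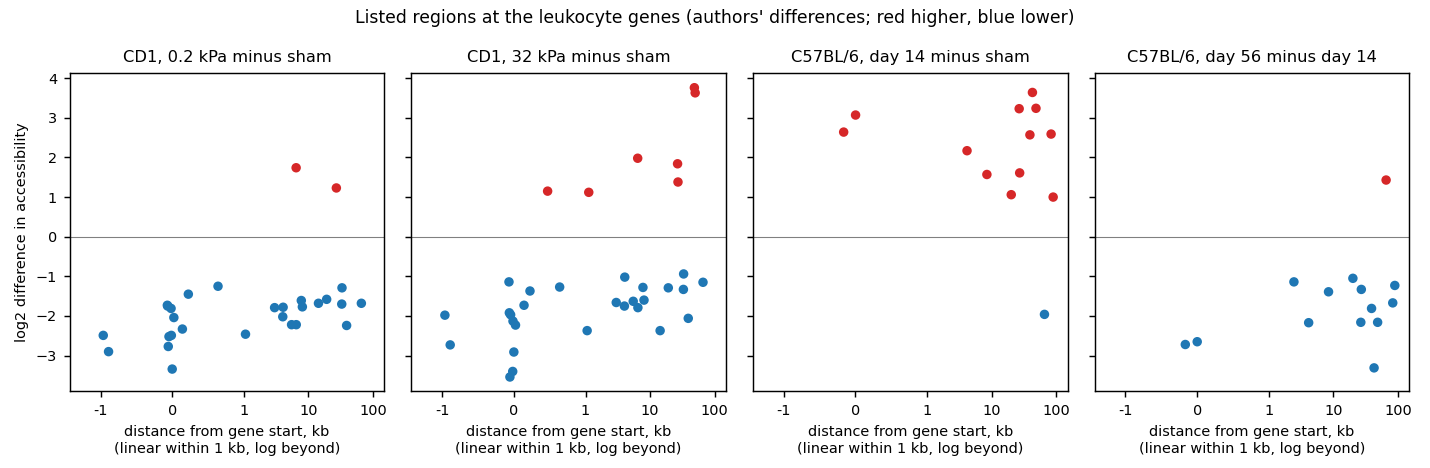
Listed ATAC regions at the members, with distance of the region's centre from the gene's start on the x axis and the authors' log2 difference on the y axis, for 4 comparisons, and each point 1 region. On the gels 27 of 29 and 27 of 34 regions lay below 0, at day 14 12 of 13 lay above 0, and from day 14 to day 56 13 of 14 lay below 0. In the whole lists these shares were 87.9% and 70.4% lower, 67.9% higher and 73.7% lower.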

How the data were processed

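RNA-seq and ATAC-seq were each given for 21 libraries. Per the submitters' processing notes, the tools used were HISAT2, Picard, featureCounts, DESeq2, Bowtie2, SAMtools, MACS2, bedtools, DiffBind and HOMER, with mm10, and no versions were named. The deposited RNA signal values are read counts divided by 1 size factor per library, and whole reads were recovered for 100% of values within 0.05 of a whole number. CPM was computed from those reads over named genes (unnamed rows held 2.13 to 4.77% of CD1 reads and 0% of C57BL/6 reads). The deposited ATAC lists hold the authors' log2 group means, log2 differences and FDR (p-values adjusted by the authors), and were used only as descriptions.

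The deposited values were rescaled by median of ratios, genes with a mean of at least 1 were kept, and log2(value + 1) was tested with limma 3.58.1 (R 4.3.3; trend, all groups of a table in 1 fit, Benjamini-Hochberg, adjusted p under 0.05). Fold changes are on that log2 scale, which understates low genes. edgeR 4.0.16 on recovered reads was an alternative. The fit was tested on simulated data. The members and lists were chosen with earlier results of these data known. Values in every library are given for Ptprc, for the 3 members of highest mean CPM in each class and for any called against its class; of the other lists, genes of highest mean CPM or called against the rest were named, and further genes there were chosen after their values were seen. Detection bounds use 3 reads over the group and the reads summed over the libraries of the other group. They do not cover the spread between libraries. Of the other lists, 1 gene is not reported here.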

Additional observations from a re-analysis of the deposited data

Results flagged for a closer look

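In the C57BL/6 groups of 4, 84 gene or class levels were checked for 1 library far from the others, and 11 stood out. The cut-off flags about 1 in 20 among independent, normally distributed values. Here some class sums contain flagged genes and some levels rest on few reads, so the 11 cannot be set against that rate. Sham replicate 2 was high for B cell genes: Cd79a was 3.90 CPM there against 1.23 to 1.24 in the other 3, Ms4a1 5.37 CPM against 0 to 0.778, and the lymphocyte sum 12.5 CPM against 2.72 to 3.26. Day 56 replicate 2 was high for neutrophil genes: S100a8 was 4.34 CPM against 0.465 to 0.918, S100a9 3.99 CPM against 0.245 to 0.416, and the neutrophil sum 8.33 CPM against 0.795 to 1.22. Both libraries are among the 4 with the fewest genes detected. Day 14 replicate 4 was high for H2-Aa (104 CPM against 65.0 to 70.3) and H2-Ab1 (174 CPM against 107 to 113). The macrophage state sum was 26.5 CPM in day 14 replicate 2 against 11 to 13.3 in the others. Retnla was 5.59 CPM in day 56 replicate 3 against 0.294 to 0.734, and Cd163 was 3.49 CPM in sham replicate 1 against 0 to 0.339.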

How the results depend on the processing

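Of 99 recomputed member counts, 95 stayed within 1.5 times their main value. Between the gels and for day 56 against sham the main count was 0, and a count passed there only by staying at 0. All 216 recomputed class sums moved by less than the SD between replicates. Most of them left out 1 library, which cannot move a group mean by as much as its SD. Only the sums recomputed with median-of-ratios scaling could have failed. Leaving out 1 library at a time gave 29 to 33 called members for the soft gel against sham, 31 to 33 for the stiff gel, 0 to 1 between the gels, 22 to 26 for day 14 against sham, 0 for day 56 against sham and 10 to 25 for day 56 against day 14. The replicate numbers did not pair the samples (same-number correlations of deviations from −0.16 to 0.12), and with the replicate block the counts were 32, 32, 0, 25, 0 and 17. The lymphocyte genes Ms4a1, Cd79a and Nkg7, which had few reads, changed sign. With 1 library left out, Ms4a1 ranged from −1.06 to 0.35 on the soft gel, from −0.84 to 1.77 at day 14 and from −0.94 to 0.88 from day 14 to day 56, where Cd79a ranged from −0.21 to 0.99 and Nkg7 from −1.05 to 0.32. With edgeR, Ms4a1 was −0.20 at day 14 and −0.50 from day 14 to day 56, and Nkg7 was 0.62. At a pseudocount of 5, Ms4a1 was −0.0016 from day 14 to day 56. Without the 4 libraries with the fewest genes detected, it was −0.0078 and Cd79a was −0.63. The cause was not tested. Among the named genes, calls were lost in 0 of 296 recomputed values on the soft gel, 7 of 296 on the stiff gel, 17 of 360 at day 14 and 22 of 360 from day 14 to day 56.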
